A study of Mus musculus with 14 samples.

Results

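The microRNAs miR-183, miR-96 and miR-182 are cut from neighbouring hairpins on mouse chromosome 6, and were followed here through heart transplants, the lymphocytes recovered from them and normal tissue. They were chosen by assay name (mmu-miR-183, mmu-miR-96 and mmu-miR-182) and make up 3 of the 375 microRNA assays on a TaqMan rodent array card, a plate of real-time PCR assays. Each of the 14 arrays held the pooled RNA of 3 animals, so that n counts pools and not mice. Nothing in the labels says whether pools of a group were operated on or processed separately, and p-values measure the spread between pools only.

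All mice were C57BL/6 or BALB/c, 8 to 10 weeks old, and each transplanted heart was added to the recipient's own (a heterotopic transplant). In the syngeneic groups donor and recipient were both C57BL/6, and the labels record no rejection. In the allogeneic groups a BALB/c heart was given to a C57BL/6 recipient, and the labels record rejection, so that donor strain and rejection cannot be told apart. Whole grafts were taken on day 7 (3 syngeneic and 3 allogeneic arrays) and graft-infiltrating lymphocytes (GIL) on day 5 (3 and 3). Untransplanted BALB/c hearts and blood mononuclear cells (PBMC) of untransplanted C57BL/6 mice gave 1 array each. The labels name no altered gene and no drug for any group.

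A microRNA guides a silencing complex to messenger RNAs that pair with its seed, the bases near its 5′ end, and lowers their output. The miR-183, miR-96 and miR-182 hairpins are transcribed together and are best known from sensory cells such as those of the inner ear and retina. In helper T cells, interleukin-2 signalling induces miR-182 after activation, and the messenger RNA of Foxo1, a transcription factor of resting lymphocytes, is a reported target.

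The mature sequences are shown because the members overlap in the seed, on which target choice mainly rests. They were taken from RefSeq (GRCm38.p6), with bases 2 to 8 in capitals. The assay names carry no arm, and the 5p entries were taken as their match.
miR-183: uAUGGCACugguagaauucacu
miR-96: uUUGGCACuagcacauuuuugcu
miR-182: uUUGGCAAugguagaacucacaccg
miR-96 and miR-182 had the same bases 2 to 7 and shared 6 of 7 bases from 2 to 8. miR-96 also shared 6 of 7 of these with miR-183, and miR-182 and miR-183 shared 5 of 7. Over the whole length, seed included and without gaps, the likeness was ordered otherwise. miR-182 and miR-183 matched at 18 of 22 positions, against 13 of 22 for miR-96 and miR-183 and 12 of 23 for miR-96 and miR-182. Among 1679 mature mouse names in RefSeq, only miR-1271-5p had bases 2 to 8 of a member, those of miR-96, and it was not on the card.

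On the minus strand the hairpins follow each other in the order miR-183 (chr6:30169668-30169737), miR-96 (chr6:30169446-30169551) and miR-182 (chr6:30165918-30165992), 3820 bases from end to end. The miR-183 and miR-96 hairpins are 116 bases apart, and miR-182 lies a further 3453 bases on. All of them fall within the long noncoding RNA gene Mirc35hg (chr6:30158640-30174125). The nearest protein-coding neighbours in the table were Nrf1, 12460 bases away, and Ube2h, 41552 bases away.

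A card reports the threshold cycle (Ct), at which a well's signal passes a threshold. The earlier a well passes it, the more of the microRNA it held, and a difference of 1 cycle is read as 1 log2 unit. Levels below are on the log2 scale relative to the mean of the reference assays of that array, and Ct 35 is the detection limit. Between 228 and 260 microRNA assays were detected per heart array (mean reference Ct 22.4 to 23.9) and between 161 and 221 per GIL or PBMC array (23.2 to 28.0). The weakest signal was that of allogeneic GIL pool 3, which holds the lowest count and the latest reference Ct. Of 42 member wells, 35 gave a Ct below the limit and 7 were undetermined. The software marked 4 of the 35, all of them for miR-183 (syngeneic heart pool 3, syngeneic GIL pools 1 and 3, and allogeneic GIL pool 3).

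In whole hearts, the comparison of allogeneic with syngeneic grafts asks which microRNAs accompany rejection on day 7. All 3 members were higher in the allogeneic grafts, miR-96 by 10.5-fold, miR-182 by 6.25-fold and miR-183 by 5.47-fold, and for none of them did the values of the groups overlap. By limma, 17.2% of the 238 assays tested were called higher and 15.1% lower, and 54.2% had groups that did not overlap. The members ranked 6th, 8th and 11th from the top of the fold changes, as the plot of ordered fold changes shows. In bulk tissue, more cells of a type and more RNA per cell cannot be told apart.

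miR-183, which stands at the 5′ end of the cluster, came up at Ct 24.55, 25.37 and 25.77 in allogeneic grafts and at 27.77, 27.12 and 27.92 in syngeneic grafts. Its levels were -1.37, -2.27 and -2.29 in allogeneic pools against -5.37, -3.75 and -4.15 in syngeneic pools. Syngeneic pool 1 was the lowest of the 6, and all allogeneic pools lay above all syngeneic ones. The log2 difference was 2.45 ± 0.48 (SE, n = 3 and 3, 95% interval 1.29 to 3.61, adjusted p = 0.0118). With the replicate number as a block in limma, miR-183 was not called (adjusted p = 0.0502).

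miR-96, the middle member and the one whose human and mouse seed mutations are known for hearing loss, was detected at Ct 27.28, 27.17 and 27.09 in allogeneic grafts and at 29.50, 31.09 and 30.91 in syngeneic grafts. Its levels of -4.09, -4.07 and -3.60 against -7.10, -7.72 and -7.14 varied less within a group than those of the other members. The log2 difference was 3.40 ± 0.27 (SE, n = 3 and 3, 95% interval 2.74 to 4.05, adjusted p = 6.29e-04).

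miR-182, the member induced in activated helper T cells, was read at Ct 22.68, 22.46 and 23.94 in allogeneic grafts and at 25.39, 25.44 and 25.95 in syngeneic grafts. Its levels were 0.51, 0.64 and -0.46 in allogeneic pools and -2.99, -2.08 and -2.18 in syngeneic pools. Allogeneic pool 3 was the lowest of its group and still above every syngeneic pool. The log2 difference was 2.64 ± 0.40 (SE, n = 3 and 3, 95% interval 1.69 to 3.60, adjusted p = 0.00457).

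The file headers give the day on which each array was run, and 2 heart run days held both groups. On the first, with pool 1 of each group, allogeneic minus syngeneic was 4.004 for miR-183, 3.01 for miR-96 and 3.50 for miR-182. On the other, with allogeneic pool 3 and syngeneic pool 2, the log2 differences were 1.47, 4.12 and 1.62. All 6 were above 0, which follows from groups that did not overlap and is no separate check of run day. The differences of miR-183 and miR-182 moved together between the days and that of miR-96 moved the opposite way. With run day as a fixed block, which leaves 1 residual degree of freedom, no member was called (adjusted p = 0.105 for miR-183, 0.0721 for miR-96 and 0.0875 for miR-182 by limma), with log2 differences of 2.74, 3.56 and 2.56. That fit called 1 assay higher and 1 lower among all 238.

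**Figure D1:**
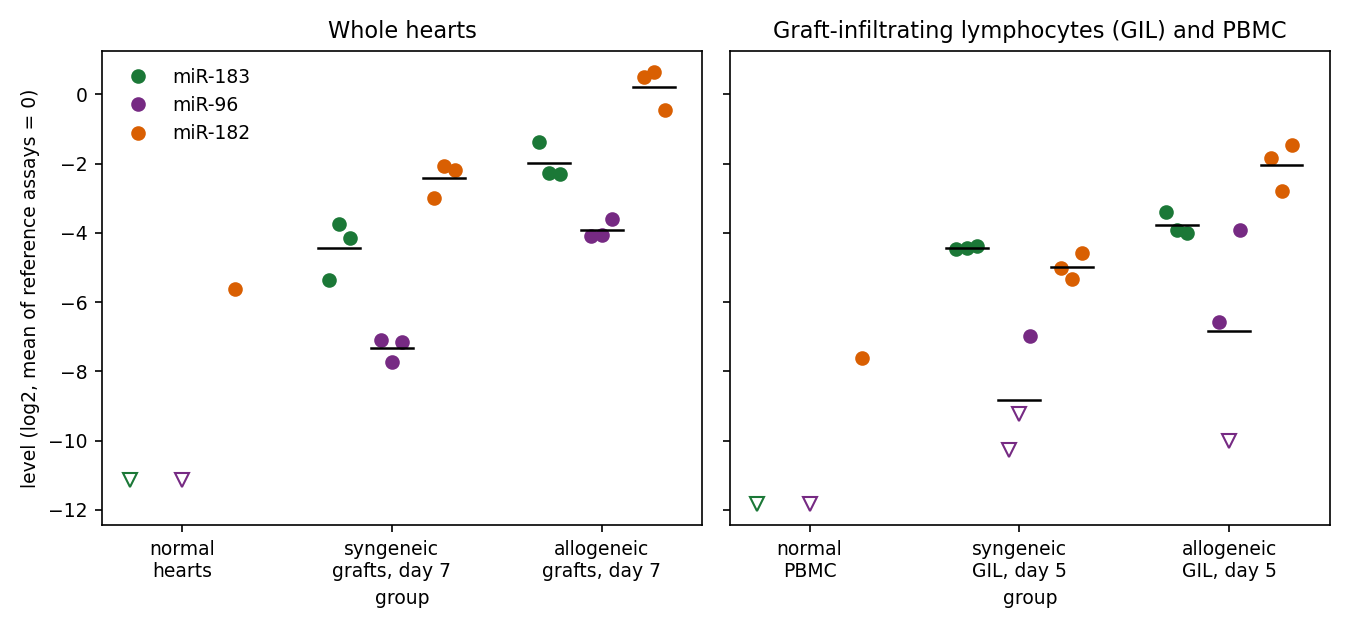
Levels of the cluster's members on each of the 14 arrays (y axis, log2 relative to the mean of the reference assays of that array; x axis, group). Each filled point is a pool of 3 animals, open triangles are wells not detected and set to the limit, and black lines are means of 3 pools. The heart and GIL tables have different reference assays, so heights are not comparable between panels. In hearts, every member is lowest in the normal array and highest in the 3 allogeneic pools.

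**Figure D2:**
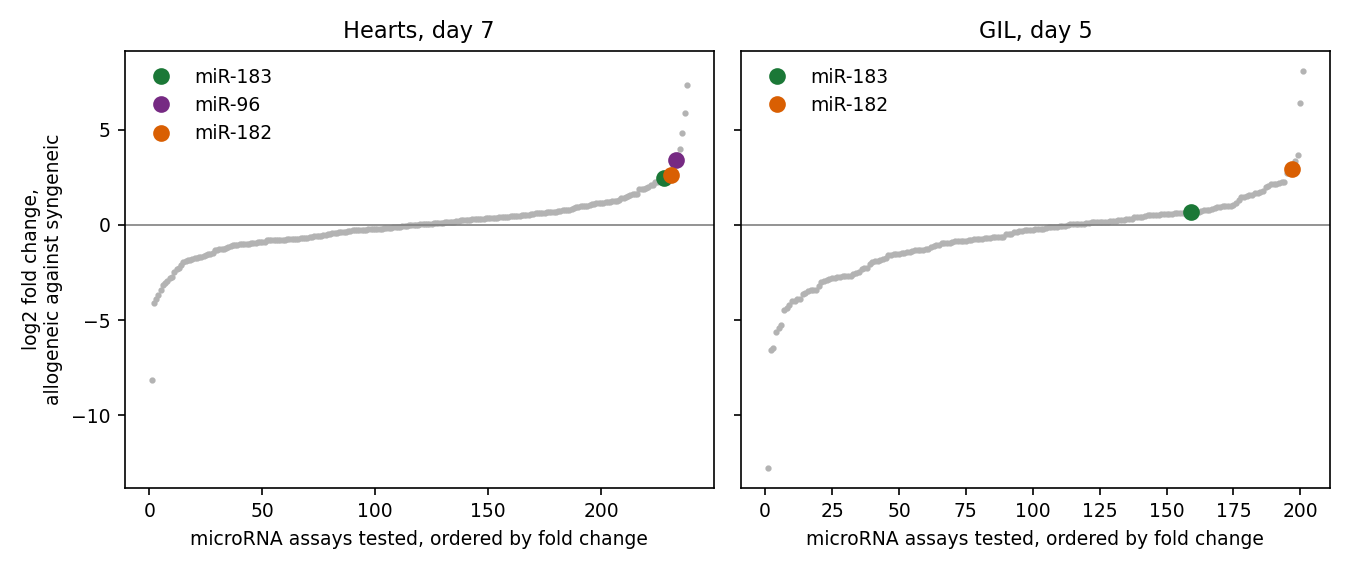
Log2 fold changes of every assay tested, allogeneic against syngeneic, ordered from lowest to highest (x axis, position in that order; y axis, log2 fold change). Grey points are the 238 heart assays and 201 GIL assays tested and coloured points are the members. All 3 members are near the upper end in hearts, whereas in GIL miR-182 is near it and miR-183, at 0.66, is not.

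Syngeneic grafts were already above normal hearts. In the normal heart array miR-182 came up at Ct 29.49, a level of -5.62, while miR-183 and miR-96 were undetermined. Against it, miR-182 was 9.22-fold higher in syngeneic grafts (log2 3.20 ± 0.57, adjusted p = 0.00867), miR-183 at least 104-fold higher (adjusted p = 9.23e-04) and miR-96 at least 14.0-fold higher (adjusted p = 9.23e-04). By limma 11.6% of the 242 assays tested were called higher and 7.44% lower, and 82.2% had a normal value outside the range of the 3 syngeneic pools. Quantile normalization ended the calls of miR-182 (2.30, adjusted p = 0.0698) and miR-96 (3.06, adjusted p = 0.135), and a detection limit at Ct 32 ended that of miR-96 (0.83, adjusted p = 0.160). The normal group is 1 array, assumed in the fit to vary like the others, and the hearts compared also differ in strain. That array was run on a day that held no graft array, so run day and normal tissue cannot be told apart. The p-values of miR-183 and miR-96 compare the grafts with the detection limit, and both entered the test through the grafts alone.

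In allogeneic grafts, which share the BALB/c strain of the normal hearts, the differences were larger for each member. miR-182 was 57.6-fold higher (log2 5.85 ± 0.56, adjusted p = 4.22e-04), miR-183 at least 571-fold higher (adjusted p = 1.13e-04) and miR-96 at least 148-fold higher (adjusted p = 2.14e-05). Of the 241 assays tested, 26.1% were called higher and 25.7% lower, and 89.6% did not overlap the normal value. The comparisons of both graft groups share that normal array, and with it a run day that held no graft. The SE and p-value of a lower bound hold no variation of the microRNA in normal hearts. miR-183 and miR-96 entered both comparisons through the grafts alone.

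Markers of several cell types also differed between these hearts. Of 4 leukocyte microRNAs tested, miR-142-3p (log2 1.64) and miR-142-5p (1.02), both made from a hairpin active in blood cells, were higher in allogeneic than in syngeneic grafts, while miR-223 (0.96) and miR-150 (-0.49) were not called. The median of the 4 was 0.99, against 0.02 over all assays, and their mean level was 4.39 to 4.78 in allogeneic pools, 3.70 to 4.12 in syngeneic pools and 2.21 in the normal heart. Of 4 resting lymphocyte microRNAs, miR-342-3p was higher (1.30) and miR-26a lower (-0.80), with a median of -0.42. Of 6 cardiac muscle microRNAs, 5 were lower, with a median of -1.60 (miR-208b -2.29, miR-133a -1.67, miR-1 -1.53 and miR-208 -1.48). Both arms of endothelial miR-126 and both fibroblast assays tested, miR-199a-3p and miR-214, were lower as well. Over all assays tested, 15.1% were called lower and 17.2% higher. The part of these markers in the members' differences was not tested.

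Differences between a member and miR-142-3p within an array need no reference assay. For miR-182 this difference was -6.48, -6.11 and -7.27 in allogeneic grafts, -8.40, -7.49 and -6.99 in syngeneic grafts and -8.24 in the normal heart, and the 2 graft groups overlapped. For miR-183 it was -8.36, -9.01 and -9.10 against -10.78, -9.16 and -8.96, again overlapping. For miR-96 it was -11.08, -10.82 and -10.42 against -12.50, -13.13 and -11.95, and the groups did not overlap. These values describe the arrays and were given no test. The share of all assays without overlap on this scale was not computed, and on levels it was 54.2%. miR-142-3p differed by 1.64, against 1.02, 0.96 and -0.49 for miR-142-5p, miR-223 and miR-150, which were not used in this way.

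Markers of other cell types were read in the same hearts, among them nerve and sensory cells, in which the cluster is best known. Of 7 epithelial microRNAs 5 were tested and 3 were higher in allogeneic grafts, miR-200a (1.63), miR-141 (1.501) and miR-200c (1.08), where 17.2% of all assays were. miR-203 (-0.88, adjusted p = 0.0524 by limma) and miR-200b (0.99) were not called, and the list's median was 1.08 against 0.02 over all assays. Their list's mean level was -4.36 to -3.10 in allogeneic pools, -5.06 to -3.36 in syngeneic pools and -4.64 in the normal heart, with 5 of 7 detected on every array of each group. Of 5 neuronal and sensory microRNAs 3 were tested and none passed in limma, either adjusted or at an unadjusted p under 0.05 (miR-9 at -0.71, miR-128a at -0.12 and miR-137 at 0.14). Against the normal heart, miR-9 (-2.24) and miR-137 (-5.66) were lower in allogeneic grafts and miR-137 (-5.80) in syngeneic grafts. Of the 5, 3 were detected on every allogeneic array and in the normal heart but 2 on every syngeneic array. A syngeneic value can thus include wells at the detection limit. Between allogeneic and syngeneic grafts, the erythroid microRNA miR-451 was higher by 3.99 log2 units and miR-486 stood at -0.16. Relative to the normal heart, miR-451 stood at 1.27 in allogeneic and -2.72 in syngeneic grafts, and miR-486 at -2.17 and -2.01. The part of these lists in the members' differences was not tested.

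In GIL, the cells recovered from grafts on day 5, the members did not move alike between allogeneic and syngeneic pools. miR-182 was 7.73-fold higher in allogeneic GIL, miR-183 was 1.58-fold higher without passing the test, and miR-96 was at the edge of detection. By limma 12.4% of the 201 assays tested were called higher and 23.9% lower, and 57.7% had groups that did not overlap. All 3 syngeneic arrays were run on a day that held no allogeneic array, so that run day and group cannot be told apart in GIL.

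miR-182 came up at Ct 25.97, 27.79 and 29.40 in allogeneic GIL and at 29.75, 31.10 and 29.62 in syngeneic GIL. After scaling to each array's reference assays, its levels were -1.84, -2.79 and -1.45 in allogeneic pools and -5.02, -5.32 and -4.58 in syngeneic pools. The groups were more than 1 log2 unit apart at their nearest values. The log2 difference was 2.95 ± 0.42 (SE, n = 3 and 3, 95% interval 1.92 to 3.98, adjusted p = 0.00713), the 5th highest of the 201.

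miR-183 was read at Ct 27.53, 28.91 and 31.94 in allogeneic GIL and at 29.21, 30.21 and 29.40 in syngeneic GIL. Its levels of -3.40, -3.90 and -3.99 against -4.48, -4.43 and -4.37 did not overlap, but the distance was small. The log2 difference was 0.66 ± 0.24 (SE, n = 3 and 3, 95% interval 0.06 to 1.26, adjusted p = 0.0787), which ranked 43rd of 201. The call changed with the scaling. It was made under MammU6 (1.48, adjusted p = 0.0419), snoRNA202 (1.55, adjusted p = 0.0462), the median of the reference assays (0.88, adjusted p = 0.0405) and quantile normalization (1.59, adjusted p = 0.0166). Under those small RNA and quantile scalings the median over all assays also rose, from -0.24 to 0.58, 0.65 and 0.06. The call was not made under snoRNA135 with snoRNA202 (1.31, adjusted p = 0.0733 by limma). Nor was it made on the deposited delta Ct, also relative to snoRNA202 (1.55, adjusted p = 0.0548 by limma).

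miR-96 was detected in 2 of 3 allogeneic pools, at Ct 30.70 and 31.86 in pools 1 and 3, and in 1 of 3 syngeneic pools, at Ct 32.002 in pool 3. Detected on every array of neither group, it was not tested. The levels were -6.57 and -3.91 where it was detected in allogeneic GIL and -6.97 in syngeneic GIL, and the other wells stood at limits between -10.27 and -9.22.

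Within an array the difference between miR-183 and miR-182 set syngeneic GIL apart from the other transplant groups. miR-183 minus miR-182 was 0.54, 0.89 and 0.22 in syngeneic GIL and -1.56, -1.12 and -2.54 in allogeneic GIL. In hearts the mean was -2.01 ± 0.35 (SD, n = 3) in syngeneic and -2.20 ± 0.61 (SD, n = 3) in allogeneic grafts. Assays can amplify with different efficiency, so only the change of such a difference is read. Between allogeneic and syngeneic GIL it was -2.29 (exact permutation test, two-sided, p = 0.1, the smallest that 3 against 3 pools allow, and 0.4 adjusted over the 4 differences computed). Of the 3 syngeneic miR-183 wells, 2 were marked by the software.

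In hearts none of the differences between members was separated between the groups by the exact test, which cannot go below 0.1 here. The change from syngeneic to allogeneic grafts was -0.19 for miR-183 minus miR-182, 0.75 for miR-96 minus miR-182 and 0.95 for miR-96 minus miR-183. The exact permutation p was 0.7, 0.4 and 0.3, and 0.7, 0.533 and 0.533 after adjustment. The sign of the first turned, to 0.16, without allogeneic pool 2.

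**Figure D3:**
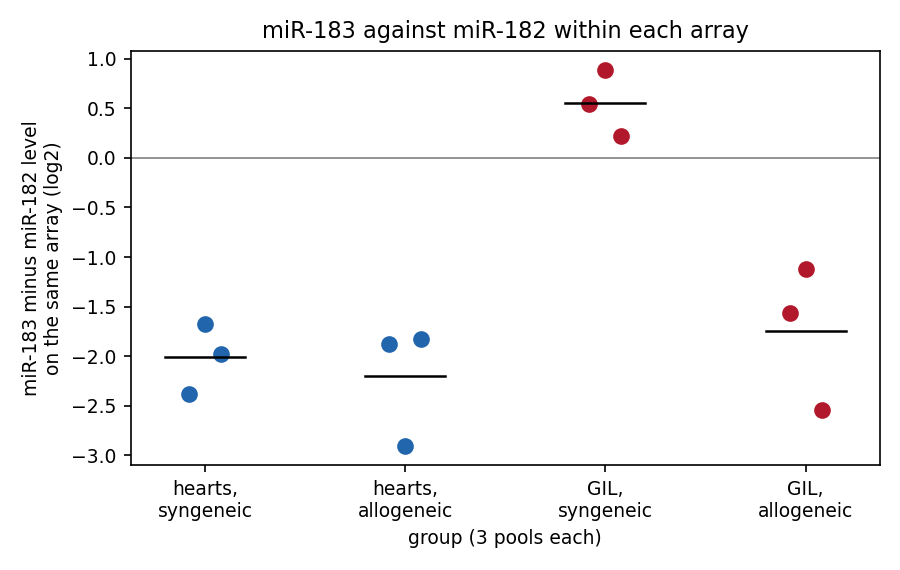
The level of miR-183 minus that of miR-182 on the same array (y axis, log2) in the 4 transplant groups (x axis). Points are pools of 3 animals and lines are means of 3 pools. The 3 syngeneic GIL pools lie above 0, between 0.22 and 0.89, and the other 9 pools lie below 0.

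Whether the difference between allogeneic and syngeneic pools was larger in one tissue than in the other was tested as an interaction. For miR-183 the effect was larger in hearts by 1.79 ± 0.58 log2 units (SE, 95% interval 0.51 to 3.07, adjusted p = 0.0410 by limma over 198 assays, of which 20.7% were called higher and 8.08% lower in this contrast). The call was lost in 18 of 26 other settings (adjusted p from 0.0256 to 0.368 over all of them), among them scaling to any small RNA and leaving out any of 8 of the 12 pools. For miR-182 the difference was -0.31 ± 0.60 (95% interval -1.65 to 1.03, adjusted p = 0.723), an interval that holds changes of over 1 log2 unit either way. Tissue, day and table differ together in this contrast, and in GIL run day and group cannot be told apart.

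Against normal blood cells, miR-183 and miR-182 were higher in GIL of both kinds. In PBMC miR-182 came up at Ct 30.79, a level of -7.61, and miR-183 and miR-96 were undetermined. In allogeneic GIL miR-182 was 48.0-fold higher (log2 5.59 ± 0.60, adjusted p = 7.91e-04) and miR-183 at least 266-fold higher (adjusted p = 6.33e-05), where 22.2% of the 212 assays tested were called higher by limma and 35.8% lower. In syngeneic GIL miR-182 was 6.21-fold higher (log2 2.63 ± 0.61, adjusted p = 0.0123) and miR-183 at least 168-fold higher (adjusted p = 4.75e-05), where 28.8% of 229 were called higher and 31.9% lower. The PBMC value lay outside the range of the 3 pools for both members in both comparisons, as it did for 89.6% and 90.8% of the assays tested. The syngeneic difference of miR-182 turned to -0.19 under quantile normalization (adjusted p = 0.846) and was not called under MammU6 (1.54, adjusted p = 0.0739). PBMC is 1 array that both comparisons share, and miR-96 was tested in neither. The PBMC array was run on a day that held no GIL array, so run day and cell source cannot be told apart. miR-183 entered both tests through GIL alone. Its p-values compare GIL with the detection limit and hold no variation of miR-183 in PBMC.

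**Figure D4:**
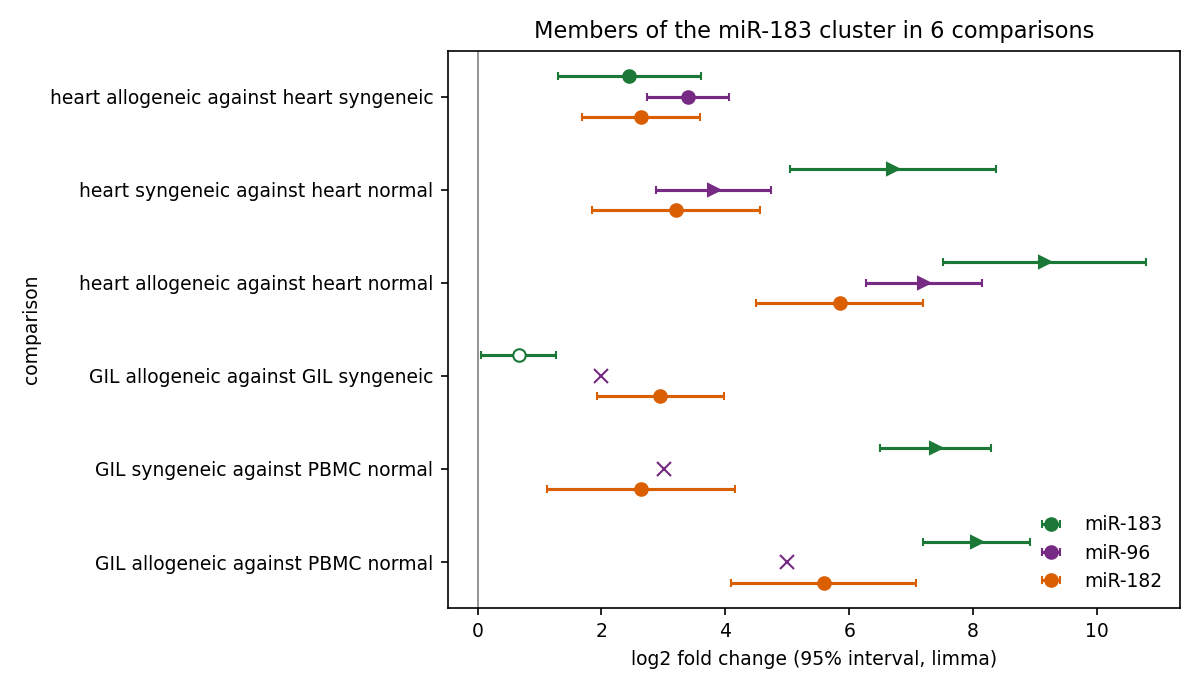
Log2 fold change of each member (x axis) in the 6 comparisons within a table (y axis), with 95% intervals from limma. Filled symbols were called, the open circle was not, crosses are miR-96 in GIL, which was not tested, and triangles are lower bounds because the normal array did not detect the member. miR-182 is called in all 6, whereas miR-183 in GIL, at 0.66, is the tested value that was not called.

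The GIL arrays also carried microRNAs of heart tissue. Of 6 cardiac muscle microRNAs 3 passed the detection filter. All 3 were higher than in PBMC, with a median of 9.24 in allogeneic and 7.58 in syngeneic GIL. So were all 3 fibroblast microRNAs (8.31 and 9.62) and both arms of miR-126 (4.69 and 5.34). The fibroblast medians are lower bounds, since miR-199a-5p, which sets them, was not detected in PBMC. The leukocyte microRNAs were lower than in PBMC, 4 of 4 in allogeneic GIL (median -2.15) and 3 of 4 in syngeneic GIL (-2.81). The medians over all assays were -1.19 and -0.77. Against PBMC, 22.2% of all assays were called higher and 35.8% lower in allogeneic GIL, and 28.8% and 31.9% in syngeneic GIL. Between the GIL groups, 12.4% of all assays were called higher in allogeneic pools and 23.9% lower. Of the cardiac list miR-133a (1.67) and miR-133b (1.54) were higher there, and all 3 fibroblast microRNAs were lower, with a median of -1.38. Of the leukocyte list miR-142-3p was higher (1.60), and of the endothelial pair miR-126-3p was lower (-1.07). Of the neuronal and sensory list miR-124 was higher in allogeneic than in syngeneic GIL (1.80), and higher than in PBMC, where it was not detected, by at least 10.5 and 8.75 log2 units. The list did not move alike: miR-128a was lower than in PBMC (-5.35 in allogeneic and -5.49 in syngeneic GIL). There miR-9 was not called (-1.32 and -1.02). The part of these markers in the members' differences was not tested.

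**Figure D5:**
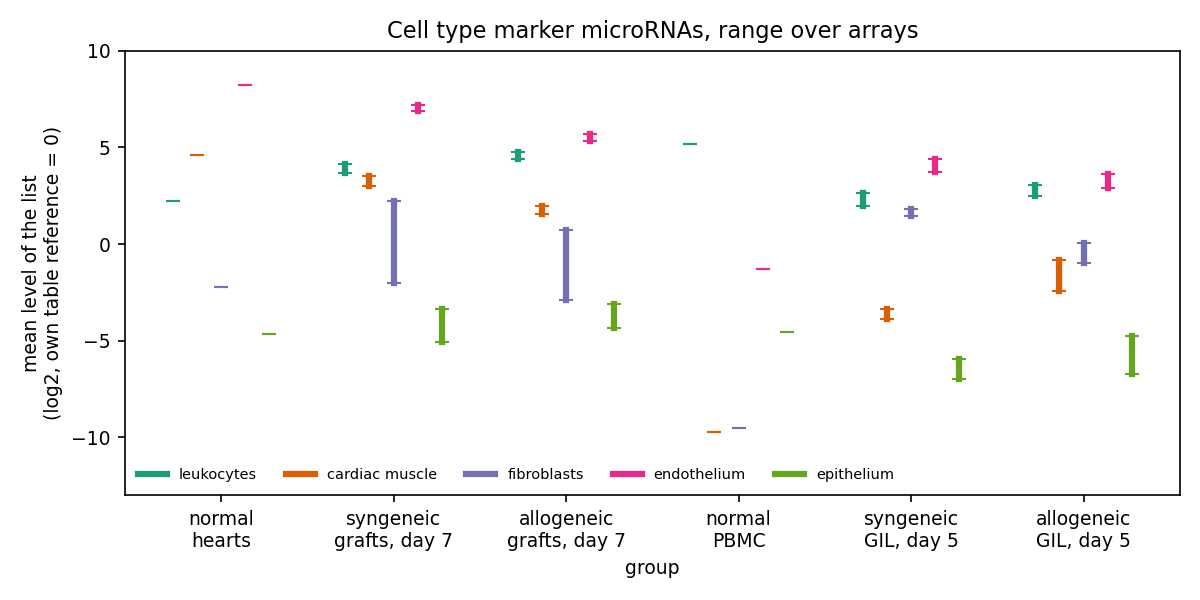
Mean level of 5 lists of cell type marker microRNAs (y axis, log2, relative to the reference assays of the array's own table) in the 6 groups (x axis); bars run from the lowest to the highest array and flat marks are the lone normal arrays. Wells not detected count at the limit. Cardiac muscle and fibroblast lists are lowest in PBMC, at -9.73 and -9.50, where 4 of 6 and 2 of 3 of their assays were not detected.

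Relative to miR-142-3p on the same array, miR-182 lay at -6.81, -7.83 and -7.00 in allogeneic GIL and at -9.16, -8.48 and -8.07 in syngeneic GIL, with no overlap, and at -14.65 in PBMC. For miR-183 the values were -8.37, -8.95 and -9.55 against -8.61, -7.59 and -7.86. Here the groups overlapped, and 2 of 3 syngeneic pools were above every allogeneic pool. The share of all GIL assays without overlap on this scale was not computed, and on levels it was 57.7%.

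With all arrays set to the assays detected on all 14, levels could be ordered across tables, as a description without a test. miR-182 was highest in allogeneic hearts (-1.45), then allogeneic GIL (-2.04), syngeneic hearts (-3.96), syngeneic GIL (-5.01), normal heart (-7.15) and PBMC (-7.65). Allogeneic hearts (-2.04 to -1.06) and GIL (-2.81 to -1.47) overlapped, and no other neighbouring groups with 3 pools did. miR-183 ran from -3.65 in allogeneic hearts and -3.79 in allogeneic GIL, which overlapped, to -4.47 in syngeneic GIL and -5.97 in syngeneic hearts. Its place of syngeneic GIL above syngeneic hearts is the reverse of that of miR-182. miR-96 was highest in allogeneic hearts (-5.60), followed by allogeneic GIL (-6.84, detected in 2 of 3 pools). It was at -8.86 both in syngeneic GIL, detected in 1 of 3 pools, and in syngeneic hearts.

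The assays with the most like pattern were found by the root mean square difference of centred levels over the 7 arrays of a table. In hearts miR-182 was the nearest of 210 assays to miR-183 (1.25 log2 units) and to miR-96 (0.79). Next to these came miR-21, a microRNA of activated and injured tissue, at 1.55 and 1.04. For miR-182 itself, miR-467a was nearest (0.67), then miR-21 (0.70) and miR-142-3p (0.78). Only assays detected on all 7 arrays could be found this way, so miR-183 and miR-96 were not among the candidates and were not compared with each other. Both were set to the limit in the normal heart, and their distances depend on that limit.

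In GIL the nearest assays of miR-183 and miR-182 had none in common. Those of miR-183 were miR-145 (0.66), miR-133a (0.71) and miR-143 (0.75), of which miR-145 and miR-143 are made in smooth muscle and miR-133a in cardiac and skeletal muscle. Those of miR-182 were miR-685 (0.74), miR-155 (1.02), an activation microRNA of lymphocytes, and miR-27b (1.22). miR-183 ranged from -4.48 to -3.40 over the 6 GIL pools, and its nearest assay miR-145 from 4.67 to 6.09, against -2.77 in PBMC. In PBMC miR-183 itself was undetermined and stood at the limit (-11.82), so its distances depend on that limit. For miR-96, at the limit on 4 of 7 arrays, miR-182 was nearest, at 1.55. With 7 arrays that share their references and PBMC far below, these distances describe the arrays and carry no test.

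Other microRNAs of activated T cells were counted from a list of 14. In allogeneic against syngeneic hearts 4 were higher and none lower, beside 17.2% and 15.1% of all assays. They were miR-21 (1.55), miR-18a (1.28), miR-222 (1.22) and miR-221 (1.15), and the list's median was 0.71 against 0.02 over all assays. In GIL 6 were higher and 2 lower, beside 12.4% and 23.9% of all assays, with a median of 0.63 against -0.24. The smallest p-values there were those of miR-155 (1.98), miR-18a (2.28), miR-31 (-2.03) and miR-146a (1.16). Each called rise of this list was smaller than that of miR-182 in the same comparison (2.64 in hearts, 2.95 in GIL). Against PBMC the list's median was -1.23 in allogeneic and -1.71 in syngeneic GIL, where miR-182 stood at 5.59 and 2.63. Over all assays it was -1.19 and -0.77. Against the normal heart the list's median was 1.33 in allogeneic and 0.68 in syngeneic grafts, against -0.17 and -0.05 over all assays.

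Of 7 other microRNAs reported to target Foxo1 tested in hearts, none was called higher and 2 were called lower, miR-135b (-2.74) and miR-139-5p (-0.996), where 15.1% of all assays were called lower. The list's median was -0.16, and miR-223 (0.96) and miR-27a (0.73) were not called. In GIL 5 were tested, of which miR-27b was higher (0.78) and miR-370 lower (-6.56, a bound at the detection limit, since no allogeneic GIL pool detected it). The level of Foxo1 itself was not analysed here.

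Other microRNA genes within 5000000 bases of the cluster were compared as neighbours on the chromosome. The card held 5 of their mature products, of which 4 were tested. In hearts miR-335-5p was lower (-1.05), and miR-29b (0.48), miR-29a (-0.21) and miR-335-3p (-0.31) were not called. In GIL miR-335-3p was lower (-3.87, with allogeneic pool 3 at the limit) and the others were not called, with values from -0.71 to 0.53. miR-29b and miR-129-5p also have a second gene elsewhere, Mir29b-2 and Mir129-2.

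The authors' deposited table gives relative quantities against the normal array. For miR-182 these were 84.1, 115 and 67.8 in allogeneic hearts and 9.12, 14.8 and 14.4 in syngeneic hearts, and 117, 113 and 143 in allogeneic GIL against 7.85, 6.17 and 13.2 in syngeneic GIL. For miR-183 the authors' deposited table reaches 33549 in hearts and 30898 in GIL, and for miR-96 11186 and 15344. Those larger values rest on cycle 40 standing in for an undetermined normal well, and their size depends on that choice.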

How the data were processed

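Per the labels' protocols, pooled RNA (100 ng of each of 3 animals, 300 ng in all) was reverse transcribed and preamplified with Megaplex primers and run on a 7900HT instrument. The authors deposited an SDS export with a Ct per well, a score that falls as the amount of a microRNA rises. The deposited delta Ct, on an inverted log2 scale, equals Ct minus that of snoRNA202, with undetermined wells at 40. The deposited relative quantity is a ratio against the normal array, and 100% of 1714 heart and 1436 GIL values checked matched that formula within 1%. Threshold settings are not given in the sources used here.

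Undetermined wells, and any with a Ct of at least 35, took the value 35. The level is the mean Ct of reference assays minus the assay's Ct, the reference being every microRNA assay found on each of the 7 arrays of its table (210 for hearts, 137 for GIL and PBMC). In 1 well (let-7b, hearts) the deposited sample name did not match and it was left out. Assays detected on every array of at least 1 group compared were tested with limma 3.58.1 in R 4.3.3 (lmFit, eBayes, two-sided) and p-values were adjusted over all assays tested (Benjamini-Hochberg), with 0.05 as the threshold for a call. A fold against an undetected group is a lower bound at the limit. The procedure was tested on simulated data. Arrays give no counts, and their number limits the precision.

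The members, the lists and the tests were chosen with earlier results of these data known. Named besides the members were the 3 assays nearest in pattern and up to 4 of each list with the smallest p. The correlation of same-numbered deviations was -0.04, -0.29 and 0.12 in hearts and 0.19, 0.23 and -0.16 in GIL. With 3 pools in a group, these values cannot settle whether the replicate numbers pair the pools.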

Additional observations from a re-analysis of the deposited data

Results flagged for a closer look

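The allogeneic effect on miR-183 differed between hearts and GIL, by 1.79 log2 units in the interaction test (adjusted p = 0.0410 by limma), with the log2 difference at 2.45 in hearts and 0.66 in GIL. In each tissue all 3 allogeneic pools were above all 3 syngeneic pools. Groups that did not overlap, in either direction, were common, at 54.2% of heart and 57.7% of GIL assays tested. The call was kept in 8 of 26 other settings.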

How the results depend on the processing

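Each member's difference was recomputed under up to 27 other settings. In allogeneic against syngeneic hearts, leaving out any 1 pool kept every call, with log2 differences of 1.98 to 2.79 (miR-183), 3.20 to 3.51 (miR-96) and 2.35 to 3.02 (miR-182). With run day as a fixed block they were 2.74, 3.56 and 2.56 and 0 members were called, in a fit that called 1 assay higher and 1 lower among all 238. Whether the replicate numbers pair the pools could not be settled. With the replicate number as a block in limma, miR-183 in hearts stayed at 2.45 but was not called (adjusted p = 0.0502). That block also took the interaction to 0 members called, and changed no other call of a member. In allogeneic against syngeneic GIL, 2 members were called instead of 1 under MammU6 (miR-183 at 1.48), snoRNA202 (1.55), the median of the reference assays (0.88) and quantile normalization (1.59), and miR-182 was called in 22 of 22 settings. Over all GIL assays 25 were called higher and 48 lower, against 34 and 20 under MammU6.

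Requiring detection on every array of a table left only miR-182 tested, with 1 member called in 5 comparisons where 3 or 2 had been, and 0 in the interaction. Against normal arrays, quantile normalization called 1 member in syngeneic hearts and 1 in syngeneic GIL, where miR-182 turned to -0.19, and MammU6 called 1 in syngeneic GIL. Without allogeneic GIL pool 2, 3 members were called against PBMC. That pool is the only allogeneic GIL pool in which miR-96 was undetermined, so leaving it out let miR-96 into the test. Its PBMC value was the detection limit, so this added call rests on the omission.

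The interaction called 0 members under each of 4 small RNA scalings (MammU6, snoRNA202, snoRNA135 with snoRNA202, deposited delta Ct), the reference median, quantile normalization, the reference of all 14 arrays, no filter and marked wells left out. Leaving out 1 pool gave 0 to 1 member called, with 1.32 to 2.13 for miR-183 and -0.69 to 0.064 for miR-182, the latter above 0 only without allogeneic heart pool 3. The change of miR-183 minus miR-182 in hearts ran from -0.38 to 0.16, turning to 0.16 without allogeneic pool 2, and in GIL from -2.60 to -1.89. The causes were not tested. Pools at the detection limit bound rather than measure a level, which touches miR-183 and miR-96 in both normal arrays and miR-96 in GIL.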
